A study of Mus musculus with 21 samples.

Results

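Genes for inhibitory (GABA) signalling and for the interneurons that provide it were read in the dentate gyrus of mice with a switchable transgene for the Nogo receptor NgR (gene *Rtn4r*), a receptor for myelin proteins that limit axon growth. The members were 30 listed gene symbols, set apart as 12 receptor genes (11 GABA receptor subunits and gephyrin) and 18 genes of GABA synthesis, transport and interneuron identity. Of the 30, 29 had a probe set annotated to that symbol alone, and 26 of these were among the 12499 genes bright enough to test. *Gabbr2* had no such probe set in the annotation table, and *Gabra3*, *Gabrg3* and *Cort* lay below the limit on low values.

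The series held 21 Affymetrix mouse arrays of RNA from the dentate gyrus, in 7 groups of 3. In set 1 the removed group was bitransgenic mice on water after doxycycline was taken away, the diet group was bitransgenic mice kept on doxycycline, and the monotransgenic group was mice on water, also taken off doxycycline, that carried the NgR transgene without tTA, the transactivator that doxycycline silences. Experiment 2 had bitransgenic mice on water that had never met doxycycline, and monotransgenic mice on water. Set 3 had bitransgenic and monotransgenic mice, with treatment not given in the labels. The promoter that drives tTA, the ages and the number of animals behind a sample are not given in the sources used here. No label states that samples were taken from different animals, and the p-values cover only the spread among the arrays, which may be technical.

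GABA is made by the glutamic acid decarboxylases, loaded into vesicles by the transporter VGAT and released onto ionotropic GABA-A receptors, which are chloride channels of mixed subunits, and onto metabotropic GABA-B receptors. In the dentate gyrus interneurons hold granule cells in check, and granule cells carry delta-subunit receptors outside synapses that respond to ambient GABA. Interneuron types are told apart by peptides such as somatostatin, neuropeptide Y, VIP and cholecystokinin, by calcium-binding proteins such as parvalbumin and calretinin, and by transcription factors such as Lhx6.

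Many peptide genes of these cells are known to respond to cyclic AMP through a promoter element whose core is TGACG. The stretches around this core are shown because every peptide member with an entry except *Npy* held it. The core played no part in choosing the members. It was searched on both strands in the 250 bases before each RefSeq gene start (GRCm38.p6). It stood in 5 of the 6 peptide members with an entry (83.3%), in 3 of 21 other members (14.3%) and in 17.8% of all 32851 entries; the full palindrome TGACGTCA, which contains the core on both strands, stood in 1.55% of them, *Sst* included. *Gabrd*, *Crh* and *Calb2* had no entry. Sequences read 5′ to 3′ on the gene's strand, capitals mark the core (the whole palindrome in *Sst*, CGTCA where it lies on the other strand), and a match is a description, not a binding site.
Sst, chr16:23890867-23890910, minus strand: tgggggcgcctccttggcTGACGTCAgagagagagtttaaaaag
Vip, chr10:5639121-5639161, plus strand: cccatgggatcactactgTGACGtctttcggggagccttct
Cck, chr9:121495719-121495759, minus strand: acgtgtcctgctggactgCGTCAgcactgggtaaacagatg
Cort, chr4:149126764-149126799, minus strand: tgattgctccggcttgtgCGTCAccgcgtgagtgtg
Tac1, chr6:7555000-7555040, plus strand: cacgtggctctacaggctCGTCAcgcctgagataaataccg

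Several receptor genes also lie side by side in the genome. On chromosome 5 *Gabrg1* and *Gabra2* are neighbours, and *Gabra4* and *Gabrb1* follow after 1 other protein-coding gene. *Gabrg3* and *Gabra5* are neighbours on chromosome 7, and the homeobox genes *Dlx1* and *Dlx2*, which set interneuron fate in the embryo, on chromosome 2.

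*Rtn4r* followed the labels in every array. Its deposited intensity was 1469, 329 and 254 in the removed group, 111, 87 and 73.1 with the diet and 63.8, 98.4 and 79 in the monotransgenic group of set 1. It was 605, 365 and 753 in bitransgenic and 113, 185 and 123 in monotransgenic mice of experiment 2, and 672, 755 and 562 against 133, 112 and 85.9 in set 3. All 21 arrays were scaled to the same trimmed mean of 150. Experiment 2 stood apart from the other sets in 3 ways: female-level *Xist* (2361 to 4749.6, against 9.59 to 33.7 elsewhere), a higher log2 ratio of 3′ to 5′ actin probes (4.84 to 6.45, against 4.17 to 5.12), and a wider spread (median SD within a group 0.30 and 0.28 log2 units, against 0.14 to 0.16). All 11 granule cell markers listed were above the limit on low values, as were the 5 of CA1 and the 9 of CA3, CA2 and hilar mossy cells.

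In set 1 marker sums moved with the groups. Summed intensity of the granule cell markers was 15098 to 18608 in the removed group and 16068 to 17795 with the diet, against 19408 to 22307 in monotransgenic mice. That of the CA3, CA2 and hilar mossy cell markers was 8446 to 9532, 9103 to 9421 and 9769 to 11186 in the same order of groups. Summed over 5 meningeal markers, of which 4 were above the limit, it was 58.1 to 95 and 83.1 to 110 in the removed and diet groups, against 704 to 864 in monotransgenic mice; *Ogn* made up most of it in the monotransgenic mice of set 1, and *Dcn* and *Col1a2* differed by −0.06 and 0.09 log2 units over the 3 sets. The meningeal sum was 96 to 145 in bitransgenic and 153 to 587 in monotransgenic mice of experiment 2, and 77.5 to 202 against 84.6 to 961 in set 3. Granule cell sums of these sets overlapped (19556 to 19928 against 17493 to 22740.4, and 14933 to 16936 against 15716 to 20377). In set 1 the removed group also lay below the monotransgenic one in CA1 (372 to 445 against 499 to 545), microglial (1138 to 1287 against 1368 to 1859.8) and choroid plexus sums (61.9 to 67.7 against 74.9 to 87.6). Diet arrays overlapped both groups in these. The striatum and neocortex sum was lower with the diet (334 to 408) than in the removed (419.6 to 489.6) and monotransgenic groups (419 to 490.1). Sums of the other cell types and regions overlapped in set 1. The part of these shifts in the members' differences was not tested.

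No member passed the test in any comparison. The test was a limma fit over all genes on log2(intensity + 16), with p-values adjusted by Benjamini-Hochberg and a threshold of 0.05. The spread of each gene was pooled over the 7 groups. Errors and p-values may therefore be too small in experiment 2, with its wider spread, and too large in the other sets. Of 9 receptor and 17 interneuron members tested, 0 and 0 passed for removed against monotransgenic (0.072% of all genes did), for removed against diet (0.032%) and for diet against monotransgenic (0.024%). Likewise 0 and 0 passed in experiment 2 (0.096% of all genes), in set 3 (0%) and over the mean of the 3 differences with the transgene on (0.072%). At an unadjusted p under 0.05, 5 of the 26 members stood out for removed against monotransgenic (7.86% of all genes), 1 for removed against diet (5.04%), 0 for diet against monotransgenic (3.85%), 2 in experiment 2 (14.4%), 1 in set 3 (4.19%) and 6 over the 3 sets (11.8%). The 3 limma tests of whether the difference itself varied between sets called 0 members and 0% of all genes each, with 0 members at an unadjusted p under 0.05 (7.91%, 3.5% and 8.09% of all genes).

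Among the alpha subunits of the GABA-A receptor, which shape its pharmacology and its place at or away from synapses, *Gabra2*, *Gabra4* and *Gabra5* were measured well above the limit. *Gabra2*, which codes for a subunit common at hippocampal synapses, read 870.2, 589.8 and 773 in the removed group, 1088, 1043 and 521 with the diet and 1165, 952 and 1062 in the monotransgenic group. All 3 removed arrays lay below all 3 monotransgenic ones, while the diet arrays spanned both. The difference of removed minus monotransgenic was −0.54 ± 0.26 log2 units (standard error, adjusted p = 0.635); diet minus monotransgenic was −0.32 ± 0.26, and the next brightest *Gabra2* probe set gave 0.07 for removed minus monotransgenic.

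By the brightest probe set, the sign of the *Gabra2* difference varied between sets, within its error. In experiment 2 *Gabra2* read 1446, 1594 and 1816 in bitransgenic and 1704, 1209 and 1766 in monotransgenic mice (difference −0.01 ± 0.26). Its dimmer probe sets above the limit gave 0.43 ± 0.28, 0.29 ± 0.27 and 0.73 ± 0.29 there. Over the 3 sets they gave 0.27, 0.12 and 0.05, against −0.12 by the brightest. In set 3 *Gabra2* read 1117, 967 and 1214 in bitransgenic and 779, 740.4 and 1435 in monotransgenic mice (0.20 ± 0.26 by the brightest). Set 1 minus set 3 was −0.74 log2 units for the difference, with an adjusted p of 1. All 6 arrays of experiment 2 read above all 9 of set 1, which 0.768% of all genes did, as did *Gad1*; set cannot be told apart from sex or RNA quality here.

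*Gabra4*, the partner of the delta subunit on granule cells, varied little between groups. Its group means ran from 2203 ± 421 (SD, n = 3) in monotransgenic mice of experiment 2 to 2887 ± 48 in monotransgenic mice of set 1. Its mean difference over the 3 sets was −0.07 log2 units (95% interval −0.23 to 0.08), and in set 3, where it had one of the lowest p among receptor members, −0.14 ± 0.13 (adjusted p = 1). *Gabra5*, a subunit of receptors outside synapses, had −0.13 over the 3 sets (−0.30 to 0.05). It read 1123, 1220 and 1331 on the diet against 1392, 1296 and 1644 in monotransgenic mice, which overlapped (−0.23 ± 0.14, adjusted p = 1), and all 6 arrays of experiment 2 read above the 6 of set 3, as in 1.05% of all genes. *Gabra3* stayed between 1.44 and 28 in the 21 arrays and was not tested.

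The receptor gene with the lowest p was *Gabrb2*, which codes for the beta subunit of the most common GABA-A receptor type. It read 1851, 2045 and 1875 in the removed group, 2161, 1961 and 2149.7 with the diet and 2523, 2427 and 2291 in the monotransgenic group. The monotransgenic arrays stood above all 6 bitransgenic arrays of set 1, whether doxycycline had been removed or not, as the granule cell, CA3 and meningeal marker sums also did, and removed and diet arrays overlapped. Removed minus monotransgenic was −0.36 ± 0.12 log2 units (0.778-fold, adjusted p = 0.334), diet minus monotransgenic −0.20 ± 0.12 (adjusted p = 1) and removed minus diet −0.16 ± 0.12 (adjusted p = 0.999).

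*Gabrb2* read 1923, 1803 and 1858 in bitransgenic mice of set 3, against 2328, 1858 and 2283 in monotransgenic mice (−0.23 ± 0.12, adjusted p = 1). The second monotransgenic array sat at the bitransgenic level and the other 2 above it. In experiment 2 it read 2052, 2637 and 2064 in bitransgenic and 2213, 1849.7 and 2555 in monotransgenic mice, which overlapped fully. The difference there was −0.05 ± 0.12, and 0.03 and 0.17 on the deposited scale and with arrays centred on their 75th percentile.

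Over the 3 sets the mean difference of *Gabrb2* was −0.21 ± 0.07 log2 units, 0.862-fold (95% interval −0.36 to −0.07; adjusted p = 0.174). An exact permutation within sets gave p = 0.0107 for it, unadjusted and for a gene picked by its low p. The call depended on the arrays: the adjusted p was 0.0497 without monotransgenic replicate 2 of set 3 (−0.25), 0.0449 without the 2 arrays of highest actin ratio (−0.25, chosen after seeing the data) and 0.031 without experiment 2 (−0.30). With limma's array weights it was 0.00274 (−0.29), a setting under which 1374 of all 12499 genes passed.

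**Figure D1:**
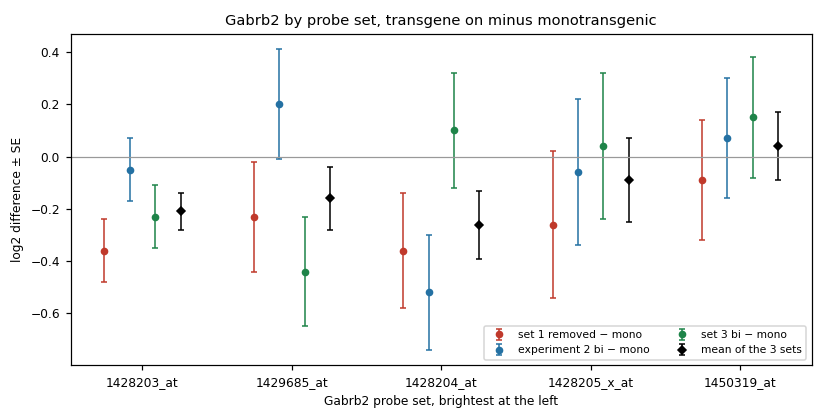
Log2 difference ± standard error of *Gabrb2* by probe set, brightest at the left, for set 1 removed minus monotransgenic, experiment 2 and set 3 bitransgenic minus monotransgenic, and their mean. The means of the 5 probe sets run from −0.26 to 0.04, and in set 3 the 2 brightest lie below 0 and the other 3 above.

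The 5 probe sets of *Gabrb2* did not give one picture. Their mean differences over the 3 sets were −0.21, −0.16, −0.26, −0.09 and 0.04 log2 units from the brightest to the dimmest. All 5 were below 0 for removed minus monotransgenic (−0.36, −0.23, −0.36, −0.26 and −0.09), but in set 3 they were −0.23, −0.44, 0.10, 0.04 and 0.15. Of 9 members with more than 1 probe set above the limit, all sets of 4 members shared a sign for removed minus monotransgenic and for the mean over the 3 sets, and those of 3 members in experiment 2 and in set 3. A difference that rounded to 0 was counted as not sharing a sign, as for *Gad1* in removed minus monotransgenic (0 and 0.41).

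*Gabrb1*, the other beta subunit tested, read 5197, 4537 and 4519 in the removed group, 3680.2, 3576 and 4338 with the diet and 4474, 3695 and 4198 in the monotransgenic group. Removed and diet arrays did not overlap in these intensities; after normalization they did, with a difference of 0.18 ± 0.10 log2 units (adjusted p = 0.999). In experiment 2 it was 0.14 ± 0.10 (adjusted p = 0.498), −0.03 by the next brightest probe set and 0.50 ± 0.24 by the dimmest above the limit. The intensities there (4453, 4777 and 4174 in bitransgenic, 3869, 4015 and 3863 in monotransgenic mice) did not overlap, while the normalized values did. Of the gamma subunits, *Gabrg1* had 27 to 78.5 in the 21 arrays and a mean difference over the 3 sets of 0.10 (−0.19 to 0.38), and *Gabrg3* stayed at or under 17.3.

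*Gabrd* codes for the delta subunit that marks tonic inhibition of granule cells. It read 165, 319 and 299 in the removed group, 474, 332 and 283 with the diet and 462, 521 and 381 in the monotransgenic group. The removed arrays lay below the monotransgenic ones and overlapped the diet arrays. Removed minus monotransgenic was −0.77 ± 0.40 log2 units (0.587-fold, adjusted p = 0.705), and removed minus diet −0.44 ± 0.40 (adjusted p = 0.999).

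In experiment 2 *Gabrd* read 339, 75 and 298 in bitransgenic and 154, 528 and 470.4 in monotransgenic mice (−0.68 ± 0.40, adjusted p = 0.43). The lowest array of each of these groups, bitransgenic replicate 2 and monotransgenic replicate 1, was also the array of highest actin ratio, 6.45 and 5.97. Without both the difference was −0.63 (adjusted p = 0.188), without bitransgenic replicate 2 alone −0.12, and without monotransgenic replicate 1 alone −1.19 (adjusted p = 0.0708). Set 3 read 399, 445 and 432 in bitransgenic and 565, 336 and 479 in monotransgenic mice, which overlapped, and the mean over the 3 sets was −0.51 ± 0.23 (0.701-fold, adjusted p = 0.393; exact permutation p = 0.0865).

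**Figure D2:**
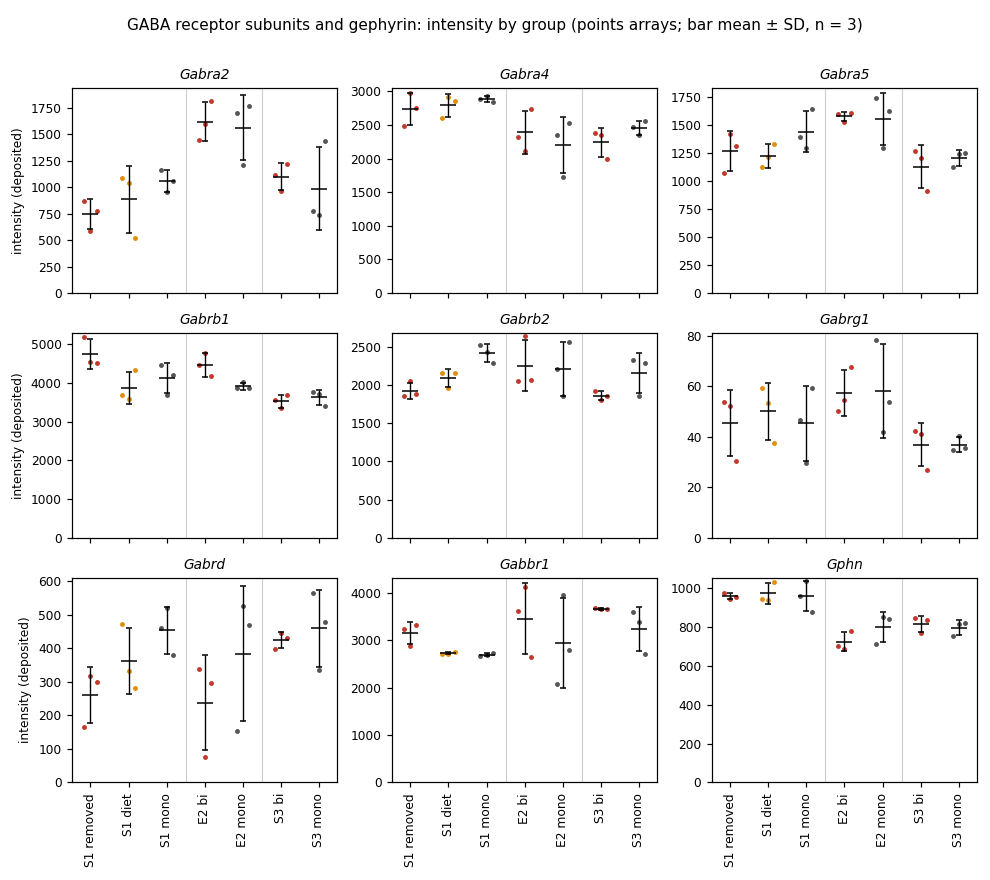
Deposited intensity of the 9 receptor members tested in each group, with points for arrays and bars for mean ± SD (n = 3); S1, E2 and S3 are set 1, experiment 2 and set 3, and bi and mono are bitransgenic and monotransgenic. *Gabrb2* in set 1 is lowest in the removed and highest in the monotransgenic group, and *Gabrd* spreads from 75 to 528 within experiment 2.

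*Gabbr1*, which codes for the GABA-binding subunit of the GABA-B receptor, had a slightly higher mean in each set where the transgene was on by its brightest probe set, without passing. It read 3249, 2884 and 3314 in the removed group, 2706, 2719 and 2757 with the diet and 2663, 2684 and 2729 in the monotransgenic group. The removed arrays lay above both other groups in these intensities; in normalized values they stayed above the diet and overlapped the monotransgenic arrays. Set 3 read 3677, 3652 and 3655 in bitransgenic and 3603, 3392 and 2712 in monotransgenic mice (0.21 ± 0.18, adjusted p = 1), and experiment 2 read 3616, 4119 and 2638 against 2070.2, 3955 and 2794. Averaged over the sets the difference was 0.18 ± 0.10 (adjusted p = 0.504; exact permutation p = 0.129), and 0.06 without the 2 arrays of highest actin ratio. The next brightest probe set gave −0.04 for removed minus monotransgenic, −0.14 in experiment 2, 0.20 in set 3 and 0.01 over the 3 sets.

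*Gphn*, which codes for the scaffold gephyrin under inhibitory synapses, varied little within groups. It read 704, 686 and 780 in bitransgenic and 711, 849 and 838 in monotransgenic mice of experiment 2 (−0.20 ± 0.11, adjusted p = 0.396), with the groups overlapping. With arrays centred on the 75th percentile that difference was 0. The dimmer *Gphn* probe sets above the limit disagreed there, at −0.33 ± 0.20 and 0.27 ± 0.18. By the brightest, the *Gphn* difference was −0.01 for removed minus monotransgenic and 0.03 in set 3. All 6 arrays of set 3 read below all 9 of set 1, as in 2.7% of all genes.

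As a block the receptor members had medians close to those of all genes. Their median log2 difference was −0.12 for removed minus monotransgenic, against −0.01 over all genes, −0.05 for removed minus diet (−0.01), −0.05 for diet minus monotransgenic (0), −0.01 in experiment 2 (0.02) and −0.03 in set 3 (0.03). Over the 3 sets it was −0.07 (0.01 over all genes), with 6 of 9 members lower against 48.4% of all genes; centring on the 75th percentile turned it to 0.03, the value of all genes under that scaling, and that of experiment 2 to 0.17, against 0.07 for all genes. Groups did not overlap for 3 of 9 receptor members in removed against monotransgenic, *Gabra2*, *Gabrb2* and *Gabrd*, all lower, beside 22.2% of all genes in either direction. They did not overlap for *Gabbr1* in removed against diet (16.2%), for *Gabrb2* in diet against monotransgenic (14.9%), and for 0 members in experiment 2 (8.69%) and set 3 (13.5%).

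The enzymes of GABA synthesis had no member past the threshold, and their probe sets disagreed. *Gad1*, which codes for the larger decarboxylase, had group means of 3459 ± 259 in the removed group, 3029.9 ± 172 with the diet and 3344 ± 155 in monotransgenic mice of set 1. It had 4975 ± 444 in bitransgenic and 4513 ± 587 in monotransgenic mice of experiment 2, and in set 3 read 4441, 3405 and 3142 in bitransgenic against 3794, 4638 and 3744 in monotransgenic mice (−0.16 ± 0.14, adjusted p = 1), overlapping. *Gad1* differed over the 3 sets by −0.01 log2 units with an interval of −0.17 to 0.16, and *Gad2*, the synaptic decarboxylase, by −0.08 (−0.40 to 0.25). A second, dimmer *Gad1* probe set gave 0.41 ± 0.28 for removed minus monotransgenic, 0.98 ± 0.28 in experiment 2, 0.13 ± 0.28 in set 3 and 0.51 ± 0.16 over the 3 sets, where the brightest gave −0.01. The second *Gad2* probe set gave 0.24 ± 0.20 over the 3 sets, and with second probe sets in place of the brightest 0 members passed.

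*Slc32a1*, which codes for VGAT and so marks every GABA-releasing terminal, had the lowest p of the interneuron members. It read 181, 89.7 and 133 in bitransgenic and 197, 248 and 257 in monotransgenic mice of experiment 2. Every bitransgenic array lay below every monotransgenic one. It was the 1 interneuron member of 17 whose groups did not overlap there, beside 8.69% of all genes in either direction. The difference was −0.68 ± 0.21 log2 units (0.623-fold, 95% interval −1.13 to −0.24; adjusted p = 0.188). The lowest array was the one with the highest actin ratio: without the 2 arrays of highest ratio the difference was −0.58 (adjusted p = 0.16), and without bitransgenic replicate 1 −0.86 (adjusted p = 0.0478).

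In set 1 *Slc32a1* read 205, 174 and 170 in the removed group, 235, 158 and 234 with the diet and 208, 244 and 275 in the monotransgenic group. Removed arrays lay below monotransgenic ones, and diet arrays overlapped both. Removed minus monotransgenic was −0.35 ± 0.21 and diet minus monotransgenic −0.22 ± 0.21 (adjusted p = 1). Set 3 read 339.7, 313 and 181 in bitransgenic and 329, 324 and 261 in monotransgenic mice, overlapping (−0.17 ± 0.21). Its mean difference over the 3 sets was −0.40 ± 0.12 (0.758-fold, interval −0.65 to −0.14; adjusted p = 0.159), with an exact permutation p of 0.008, again for a gene picked by its low p. In these bulk samples fewer cells of a type and less RNA per cell cannot be told apart.

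*Slc6a11*, a GABA transporter of glia, lay near the limit at 1.75 to 31.3. It read 21.6, 23 and 13.9 with the diet and 1.75, 24.8 and 11.7 in monotransgenic mice of set 1, overlapping (0.34 ± 0.24, adjusted p = 1).

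Among the peptide genes, *Sst*, which codes for somatostatin of the dendrite-targeting hilar interneurons, read 18.1, 4.24 and 34.3 in bitransgenic and 47.3, 46.1 and 56.8 in monotransgenic mice of experiment 2. These intensities did not overlap, while the normalized values did; the lowest was again the array of highest actin ratio. The difference was −0.83 ± 0.31 log2 units (0.561-fold, adjusted p = 0.251) and −0.49 without the 2 arrays of highest ratio. *Sst* stayed close to the limit on low values in all sets (4.24 to 56.8), was −0.43 ± 0.31 for removed minus diet (8.33, 19.9 and 28.7 against 38.4, 23.4 and 32.8, overlapping; adjusted p = 0.999), and −0.41 ± 0.18 over the 3 sets (adjusted p = 0.37; exact permutation p = 0.0678).

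*Npy*, which codes for neuropeptide Y, is often made by the same hilar cells as somatostatin. It read 205, 95.3 and 123 in bitransgenic and 162, 239.6 and 256 in monotransgenic mice of experiment 2, overlapping (−0.53 ± 0.28, adjusted p = 0.384). The lowest array of each of these groups was again the array of highest actin ratio. The mean difference of *Npy* over the 3 sets was −0.27 (−0.61 to 0.07).

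*Vip*, the peptide of interneurons that mostly target other interneurons, read 295, 63.4 and 130.2 in the removed group, 166, 265 and 124 with the diet and 242, 275 and 294 in the monotransgenic group. Replicate 1 of the removed group reached the top of the monotransgenic range and the other 2 lay far below it. Removed minus monotransgenic was −0.87 ± 0.40 (adjusted p = 0.598), with a range of −1.38 to −0.40 as each array was left out, and diet minus monotransgenic −0.57 ± 0.40 (adjusted p = 1). *Vip* was 0.27 in experiment 2 and 0.16 in set 3. Set 1 minus experiment 2 gave −1.14 for the difference (adjusted p = 0.653), and set 1 minus set 3 gave −1.03 (adjusted p = 1).

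*Cck*, which codes for cholecystokinin of basket cells and is also made by excitatory hippocampal neurons, was the peptide gene that stood higher. In set 3 it read 704, 630 and 796 in bitransgenic and 337, 754 and 204 in monotransgenic mice. The second monotransgenic array sat among the bitransgenic ones and the other 2 well below. The difference was 0.91 ± 0.36 log2 units (1.88-fold, adjusted p = 1), 1.41 without that array (adjusted p = 0.0481) and 0.48 without monotransgenic replicate 3 (adjusted p = 1). In set 1 it read 341, 386 and 473 in the removed group, 540.1, 461 and 236 with the diet and 329, 308 and 301 in the monotransgenic group, with removed arrays above monotransgenic ones (0.34 ± 0.36). The diet arrays overlapped both groups, with removed minus diet at 0.04 ± 0.36 and diet minus monotransgenic at 0.30 ± 0.36.

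In experiment 2 *Cck* read 801, 448 and 595 in bitransgenic and 592, 743 and 375 in monotransgenic mice, overlapping (0.11 ± 0.36). The mean over the 3 sets was 0.45 ± 0.21 (1.37-fold, adjusted p = 0.394; exact permutation p = 0.0688). The difference of experiment 2 minus set 3 was −0.80 (adjusted p = 0.647).

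The monotransgenic array of set 3 that read 754 for *Cck* also stood apart in 2 genes outside the list. *Ogn*, a proteoglycan gene expressed in meninges, read 824, 41.2 and 652 in the monotransgenic arrays of set 3, and *C1ql2*, a synaptic organizer gene of granule cells, 886, 135 and 1132. In monotransgenic arrays of experiment 2 *Ogn* read 153, 79.6 and 525 and *C1ql2* 136, 442 and 1234, beside *Cck* at 592, 743 and 375. *Gabrb2* in the set 3 array, at 1858, was likewise the lowest of its group. The part of these arrays in the differences was not tested, beyond the values without each of them.

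**Figure D3:**
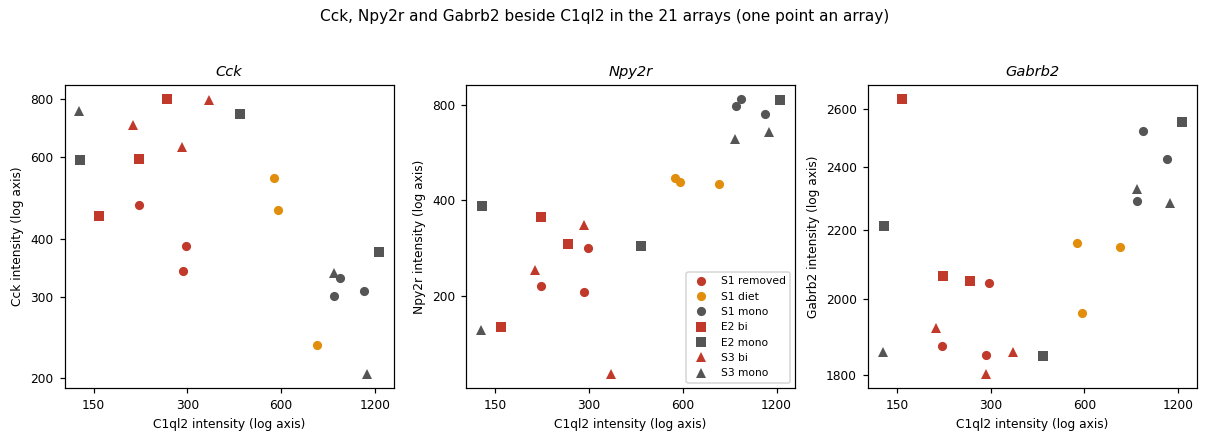
Intensity of *Cck*, *Npy2r* (the Y2 receptor for neuropeptide Y) and *Gabrb2* against *C1ql2* in the 21 arrays, on log axes; colours show transgene on (red), diet (orange) and monotransgenic (grey), and shapes the set. The grey triangle at a *C1ql2* of 135 is monotransgenic replicate 2 of set 3, at 754 for *Cck*, 156 for *Npy2r* and 1858 for *Gabrb2*.

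*Tac1*, the precursor gene of substance P, read 244, 221 and 192 in bitransgenic and 309, 228 and 249 in monotransgenic mice of set 3, overlapping (−0.24 ± 0.21, adjusted p = 1). It was −0.44 for removed minus monotransgenic and −0.27 over the 3 sets (−0.53 to −0.01; adjusted p = 0.398). *Crh*, the gene of the stress peptide corticotropin-releasing hormone, read 48 to 306 across the arrays, both from bitransgenic mice, and differed by −0.14 over the 3 sets (−0.64 to 0.36). *Cort*, which codes for the somatostatin relative cortistatin, read 2.54 to 16.3 and was not tested.

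Of the calcium-binding proteins, *Calb2* (calretinin) had the largest difference of any member in the 6 comparisons. It read 83.2, 53.2 and 55.3 in the removed group, 18.5, 5.94 and 49.3 with the diet and 33.1, 26.8 and 32.6 in the monotransgenic group. All removed arrays lay above all 6 others, by little in the case of the third diet array. Removed minus diet was 1.17 ± 0.38 log2 units (2.25-fold, 95% interval 0.38 to 1.97; adjusted p = 0.59) and removed minus monotransgenic 0.81 ± 0.38 (1.76-fold, adjusted p = 0.622).

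*Calb2* was −0.11 ± 0.38 in experiment 2 and 0.13 ± 0.38 in set 3. Calretinin also marks mossy cells, young granule cells and thalamus: summed over 5 thalamic markers, *Calb2* among them, arrays read 118 to 176 in the removed group, 107 to 139 with the diet and 113 to 150.1 in the monotransgenic group. Their part in the difference was not tested. *Pvalb*, the parvalbumin gene of fast-spiking basket cells, read 53.9 to 149 and differed by −0.07 over the 3 sets (−0.38 to 0.24).

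*Nos1* codes for the neuronal nitric oxide synthase that many neurogliaform interneurons contain. It read 145, 341 and 265 in the removed group, 458, 371 and 279.8 with the diet and 449, 440.1 and 328 in the monotransgenic group. Removed replicate 2 overlapped the monotransgenic range, and replicate 1 lay far below it. The difference was −0.70 ± 0.32 (0.617-fold, adjusted p = 0.6) and against the diet −0.55 ± 0.32 (adjusted p = 0.999). Without removed replicate 1 these were −0.38 and −0.24. In experiment 2 it read 305, 120.1 and 306 in bitransgenic and 171, 363 and 348 in monotransgenic mice, the lowest of each group again being the array of highest actin ratio.

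*Reln*, the gene of the extracellular protein reelin made by interneurons near the hippocampal fissure, read 164 to 359 and differed by 0.10 over the 3 sets (−0.19 to 0.39). The transcription factors of medial ganglionic origin and of early fate were dim. *Lhx6* read 23.6 to 77.1 and differed by −0.02 (−0.26 to 0.22), with all 6 arrays of experiment 2 below the 6 of set 3, as in 0.904% of all genes. *Dlx1* differed by −0.12 (−0.49 to 0.24) and *Dlx2* by −0.09 (−0.31 to 0.13). *Dlx2* read 15.1, 13.5 and 17.1 in bitransgenic and 18.3, 23.1 and 20.7 in monotransgenic mice of set 3, the 1 interneuron member there without overlap, beside 13.5% of all genes.

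**Figure D4:**
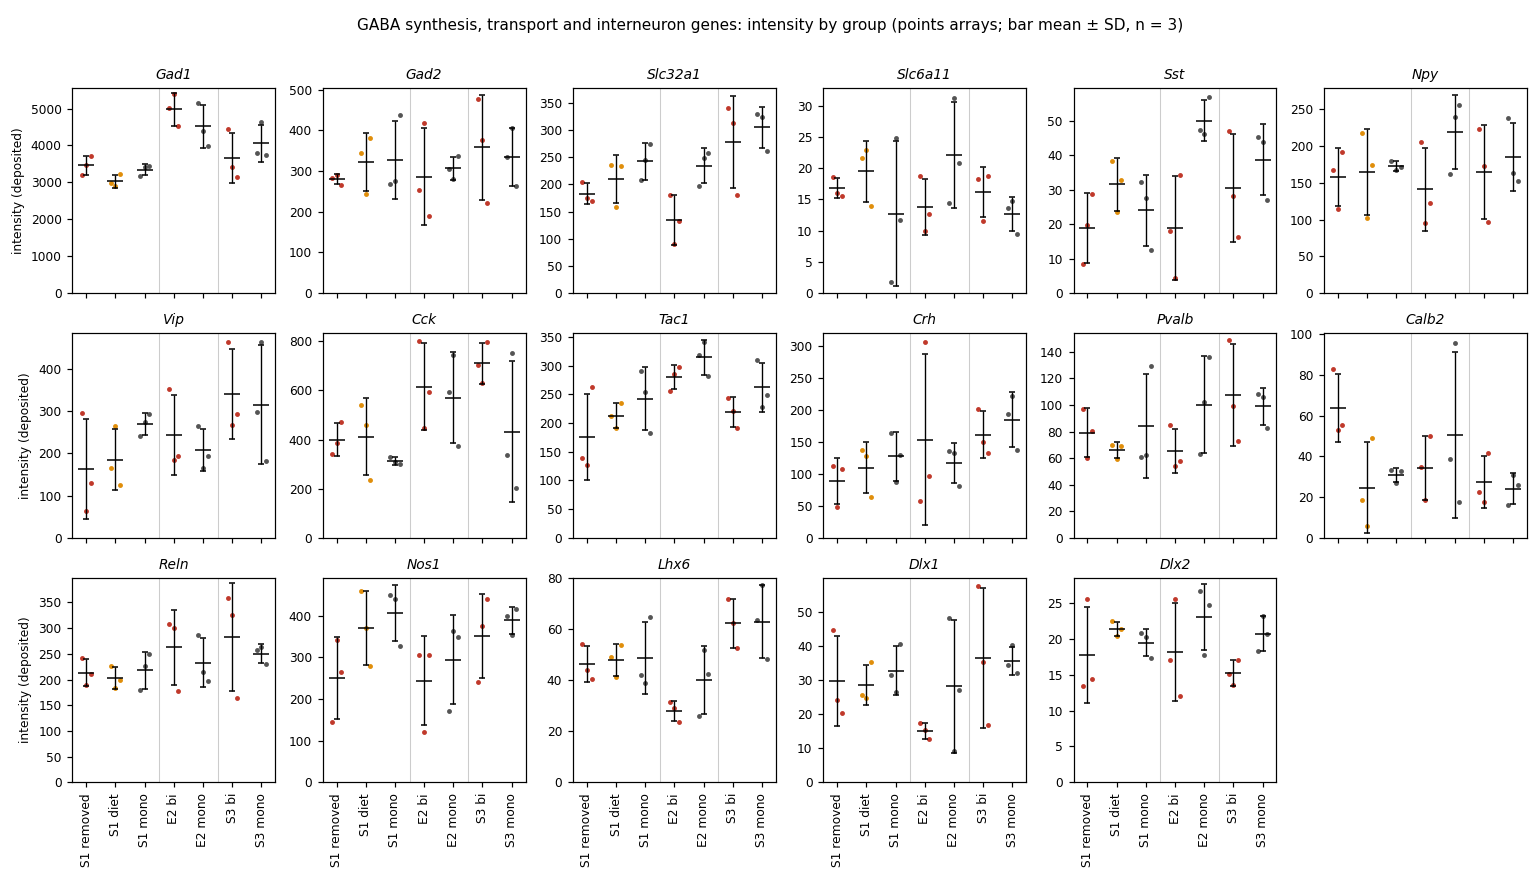
Deposited intensity of the 17 interneuron members tested in each group, with points for arrays and bars for mean ± SD (n = 3), labelled as in the plot of receptor members. *Slc32a1* is lower in bitransgenic than monotransgenic arrays of experiment 2, and *Cck* in monotransgenic mice of set 3 runs from 204 to 754.

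As a block the interneuron members had a median log2 difference of −0.07 for removed minus monotransgenic, −0.05 for removed minus diet, −0.13 for diet minus monotransgenic, −0.13 in experiment 2 and −0.01 in set 3. Over the 3 sets it was −0.09, with 13 of 17 members lower, against 0.01 and 48.4% lower over all genes. In each of the 3 sets 7 interneuron members were lower, *Slc32a1*, *Sst*, *Npy*, *Tac1*, *Nos1*, *Dlx1* and *Dlx2*, beside 13% of all genes. So were 3 of 9 receptor members, *Gabra5*, *Gabrb2* and *Gabrd*, beside the same 13%. *Gabra5* and *Gabrb2* left this count on both other scalings. Groups did not overlap for 3 of 17 interneuron members in removed against monotransgenic, *Slc32a1* (lower), *Cck* and *Calb2* (higher), beside 22.2% of all genes. The count was 1, *Calb2*, in removed against diet (16.2% of all genes) and 0 in diet against monotransgenic (14.9%). The interneuron members varied more within groups (median SD 0.37 log2 units) than all genes (0.25), and the receptor members less (0.17).

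**Figure D5:**
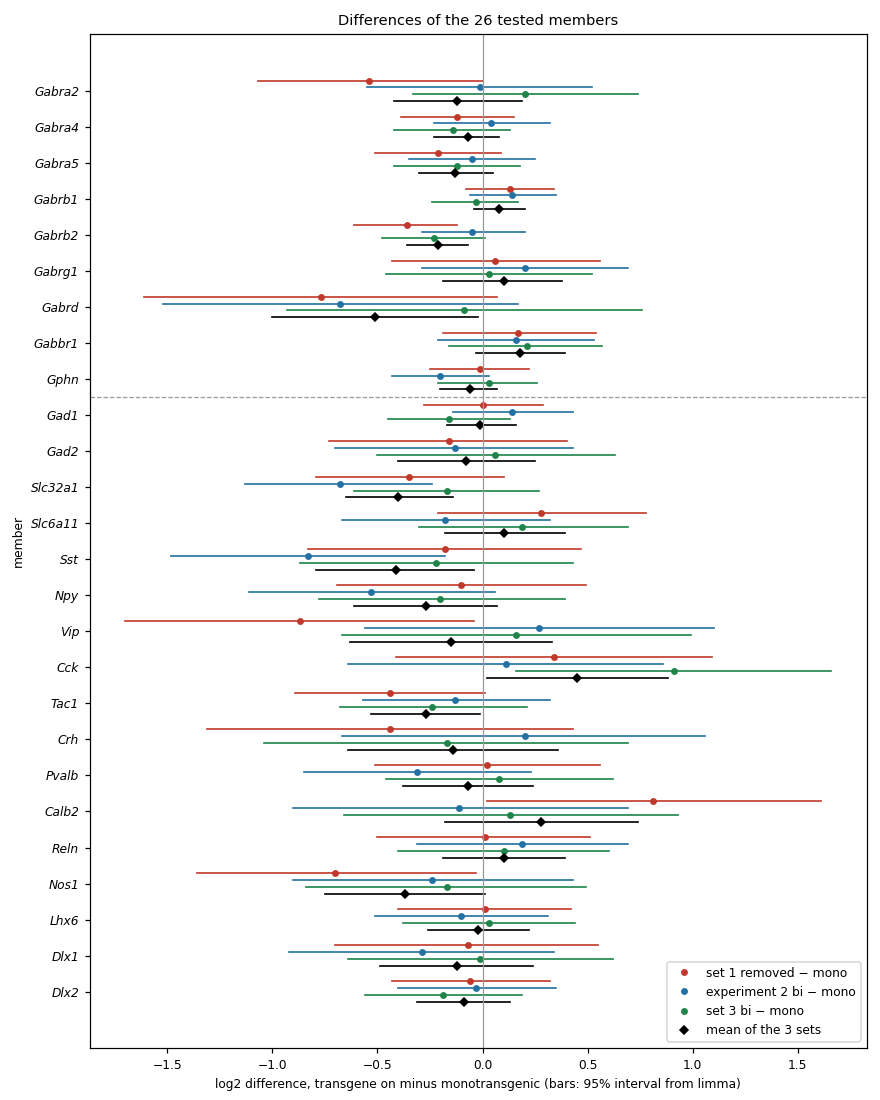
Log2 difference of each of the 26 members tested, with its 95% interval as the bar, in set 1 (removed minus monotransgenic), experiment 2 and set 3 (bitransgenic minus monotransgenic) and their mean. Receptor members stand above the dashed line. *Vip* (−0.87) and *Calb2* (0.81) in set 1, *Sst* (−0.83) in experiment 2 and *Cck* (0.91) in set 3 lie farthest out, and none passed the test.

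Other genes of the pathway were taken from 2 further lists. Of 33 other GABA and interneuron genes, 18 were tested and 0 passed in each comparison. At an unadjusted p under 0.05 there were 3 for removed against monotransgenic (7.86% of all genes), 3 in experiment 2 (14.4%), 1 each for removed against diet (5.04%), diet against monotransgenic (3.85%) and set 3 (4.19%), and 1 over the 3 sets (11.8%), *Nr2f2* (−0.27 ± 0.13, adjusted p = 0.402), a nuclear receptor of caudally derived interneurons. It read 9.48, 8.68 and 13.6 in the removed group, 28.2, 15.6 and 5.71 with the diet and 32.8, 29.5 and 30.8 in monotransgenic mice of set 1. These values lay near the limit on low values, the removed ones below it. Both bitransgenic groups lay below the monotransgenic one, as for the granule cell, CA3 and meningeal marker sums of set 1. Removed minus monotransgenic was −0.82 ± 0.22 for *Nr2f2* (adjusted p = 0.197). *Lamp5*, a neurogliaform marker, was −0.90 ± 0.27 in that comparison (adjusted p = 0.258) and −0.62 ± 0.27 against the diet (adjusted p = 0.912). *Gabarapl2*, a relative of the GABA receptor trafficking protein GABARAP, was −0.62 ± 0.16 in experiment 2 (adjusted p = 0.129) without overlap, at 516, 321 and 482 in bitransgenic and 717, 521 and 819 in monotransgenic mice.

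Of 13 receptors for the peptides, 9 were tested and 0 passed in each comparison (0.072% of all genes over the 3 sets); 4 had an unadjusted p under 0.05 over the 3 sets (11.8% of all genes). *Npy2r*, which codes for the presynaptic Y2 receptor of neuropeptide Y, came closest. It read 205, 282 and 215 in the removed group, 470, 456 and 449.7 with the diet and 835, 749 and 794 in the monotransgenic group, 3 levels without overlap. It read 291, 159 and 353 in bitransgenic and 384, 286 and 827 in monotransgenic mice of experiment 2, and 241, 333 and 113 against 623, 156 and 658 in set 3.

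The groups overlapped in both of the later sets, and the low monotransgenic array of set 3 was the same replicate 2. *Npy2r* differed by −1.69 ± 0.44 log2 units for removed minus monotransgenic (0.311-fold, adjusted p = 0.176), −0.91 ± 0.44 for removed minus diet (adjusted p = 0.99) and −1.11 ± 0.25 over the 3 sets (0.462-fold, adjusted p = 0.0679). The last passed with array weights (adjusted p = 0.00293), as did 1374 of all 12499 genes. It also passed without experiment 2 (0.0386), without set 3 (0.0466) and without that monotransgenic replicate 2 of set 3 (−1.33, 0.00152). The same held without monotransgenic replicate 1 or 2 of experiment 2 (0.0378 and 0.0297) and without the 2 arrays of highest actin ratio (0.0415). With set 1 fitted alone *Npy2r* passed for removed minus monotransgenic (2.38e-05), removed minus diet (0.00381) and diet minus monotransgenic (−0.78, 0.0198), and with array weights for the first of these (0.013). In set 1 both bitransgenic groups lay below the monotransgenic one, as for the meningeal and granule cell marker sums. *Sstr3*, a somatostatin receptor of neuronal cilia, was 0.41 ± 0.13 over the 3 sets (1.33-fold, adjusted p = 0.175).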

How the data were processed

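Total RNA of 21 dentate gyrus samples was hybridized to 1-colour Affymetrix mouse arrays. The deposited values are the authors' linear intensity per probe set; each array has a mean of 150 after leaving out 2% at each end, and how probes were summarized is not stated in the labels. Of 45101 probe sets, 64 controls were left out; in the platform annotation 34945 had a single symbol, 932 several and 9160 none. The members and lists were chosen with earlier results of these data known. The deposited intensities were taken to log2(value + 16) and quantile-normalized; the upper 60% of probe sets by mean (27022) passed the filter on low values, and the brightest one stood for a gene. Intensities are printed as deposited, and overlap was judged on normalized values unless intensities are named.

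One limma fit (limma 3.58.1, R 4.3.3, with files read by data.table, version 1.17.8) estimated the 7 group means together (14 residual degrees of freedom, variance trend). It was run on simulated data in which a gene had the same spread in all 7 groups. That run cannot check the fit under the wider spread of experiment 2. Tests were two-sided with Benjamini-Hochberg adjustment over 12499 genes. Named members were the 3 of lowest p per block and comparison and up to 2 per difference between sets; up to 3 and 2 genes were named from the lists of other genes and receptors. *Ogn*, *C1ql2*, the sex genes and members named for no overlap were chosen after their values were seen. Exact permutation used 8000 relabelings within sets; 3 arrays against 3 alone cannot go below 0.1. The number of arrays limits precision. Alternatives were other pseudocounts, filters, scalings and probe sets, limma without its variance trend or with array weights, a title-prefix block in set 3, fits on each set alone and leaving out each array; leaving out the 2 arrays with the highest actin ratio was added after seeing the data. Promoters came from RefSeq (GRCm38.p6), and figures were drawn with matplotlib 3.10.9.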

Additional observations from a re-analysis of the deposited data

How the results depend on the processing

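Of 856 alternative values of 42 named member differences, 840 kept direction and side of the threshold, 11 newly passed and 5 turned sign. By the next brightest probe set *Gabra2* was 0.07 for removed minus monotransgenic, *Gabrb1* −0.03 in experiment 2 and *Gad1* 0.13 in set 3; *Gphn* in experiment 2 was 0 when centred on the 75th percentile, and *Gabra2* for diet minus monotransgenic ran from −0.52 to 0.02 as each array was left out. With array weights 1 member passed for removed minus monotransgenic (*Gabrb2*, adjusted p = 0.0342), a comparison where alternatives called 0 to 330 of all genes. Over the 3 sets 4 of the 26 passed, beside 1374 of all 12499 genes under that setting: *Gabrb2* (0.00274), *Gabrd* (0.0396), *Slc32a1* (0.0394) and *Cck* (0.0458). *Gabrb2* also passed for removed minus monotransgenic with set 1 fitted alone (0.0191). Over the 3 sets it was the 1 member to pass without experiment 2 (0.031) and the 1 without the 2 arrays of highest actin ratio (0.0449). Over the 3 sets, alternatives called 2 to 1374 of all genes. Leaving out 1 array gave 0 to 1 members in experiment 2, in set 3 and over the 3 sets, and 0 in the other comparisons. Over all genes it gave 5 to 646 in experiment 2, 0 to 73 in set 3 and 3 to 316 over the 3 sets.

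The receptor median for removed minus monotransgenic was −0.01 with no filter, −0.04 centred on the 75th percentile, −0.04 by the next brightest probe set and −0.18 to −0.06 without each array. Centring gave 0.17 in experiment 2 (all genes 0.07), where leaving out arrays gave −0.15 to 0.09, and 0.03 over the 3 sets (all genes 0.03); for diet minus monotransgenic leaving out arrays gave −0.15 to −0.02. The interneuron median for removed minus monotransgenic ran from −0.13 to 0.03 and for diet minus monotransgenic from −0.16 to −0.03 without each array; in experiment 2 it was −0.27 on the deposited scale and −0.24 with array weights. The cause of these shifts was not tested.

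Counts over all genes moved more: across alternatives they ran from 0 to 330 for removed minus monotransgenic (9 as reported), 0 to 85 for removed minus diet (4), 0 to 41 for diet minus monotransgenic (3), 0 to 890 in experiment 2 (12), 0 to 73 in set 3 (0) and 2 to 1374 over the 3 sets (9), the highest of experiment 2 and of the 3 sets with array weights. No paired analysis was possible because replicate numbers follow sample order, except in set 3, where 2 title prefixes hold both genotypes: with the prefix as a block 0 members passed, *Cck* was 0.93 and *Gabrb2* −0.16 there (adjusted p = 1 each). The mean over 3 sets could not be fitted on 1 set alone. Members under an intensity of about 13.8 were not measured well enough to test.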
